A study of Homo sapiens with 12 samples.

Results

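The comparison covered THP-1 cells treated with Jiyuan oridonin A (JOA) against control THP-1 cells, and it took 6 of the 12 mRNA-seq libraries of the study. THP-1 is an established human acute myeloid leukemia (AML) line with monocytic features, a rearranged MLL gene and wild-type FLT3, and JOA is an ent-kaurene diterpenoid isolated from the herb Isodon rubescens. The 3 control libraries came from cells given the DMSO vehicle and the 3 JOA libraries from cells given 2 μM JOA, and RNA was taken after 48 h in both groups by the sample labels, although the study's text gives a longer time in one place. The other 6 libraries were from MOLM-13, an AML line with a rearranged MLL gene and a FLT3 internal tandem duplication, given DMSO or 0.5 μM JOA for the same time. Expression was given as FPKM, the fragments mapped to a gene, scaled for the length of its exons and for the mapped fragments of the library. A gene entered the comparison where its mean FPKM over the 6 THP-1 libraries was at least 1, which held for 10098 of 20030 genes, and its values were taken as log2(FPKM + 0.1). LCORL and TUFT1, at means of 0.999634 and 0.999714 FPKM, fell just outside that limit, and GAREM1 and TTC21B, at 1.00092 and 1.00094 FPKM, just inside.

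Monocytic leukemia cells with an MLL fusion are held at an immature stage, in which HOXA genes, MEIS1 and growth factor receptors such as KIT and FLT3 are typically expressed. Monocytes and macrophages that mature carry integrins, Fc receptors and scavenger receptors on their surface and hold many lysosomes, the acid compartments in which engulfed or autophagic material is broken down. Compounds that react with thiol groups, as ent-kaurene enones can, release the transcription factor NRF2 from its inhibitor KEAP1, and NRF2 then drives genes for antioxidant enzymes, NADPH supply, heme breakdown and iron storage through antioxidant response elements. MHC class II genes present peptides to helper T cells and are switched on together through a promoter module that includes the Y box.

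The libraries were alike in their summary values. Their FPKM values summed to between 291127 and 304345, their depth relative to the first control library lay between 0.93 and 1.07, and 14575 to 14888 genes were above 0. Of 12 monocytic markers, 10 passed the filter, with LYZ at 755 to 1354 FPKM and CEBPA at 186 to 211 FPKM, while CD14 (at most 0.978 FPKM) and CSF2RA (at most 0.150 FPKM) did not. Of the 10, 3 were higher and 3 lower with JOA, with a median log2 fold change of -0.07, and the list summed to 1717, 1872 and 2243 FPKM in control and 1638, 1636 and 1913 FPKM in JOA libraries, lower in each pair. Among markers of other cells, 0 of 5 T cell, 1 of 5 B cell, 1 of 8 erythroid and megakaryocyte, 1 of 5 epithelial and 0 of 5 fibroblast genes passed, and CD3D, CD3G, HBB, HBA2, ALAS2 and PF4 were listed at 0 in all 6. The epithelial markers summed to between 0.832 and 4.99 FPKM in control and between 0.649 and 1.94 FPKM in JOA libraries, chiefly through KRT8 and KRT18, and KRT8 did not pass the test (log2 fold change -0.89). The part of these transcripts in any result was not tested.

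JOA changed many THP-1 genes by a little and few by much. At a Benjamini-Hochberg adjusted p under 0.05 in limma, with same-numbered libraries paired, 872 genes were higher with JOA (8.64% of those tested) and 439 were lower (4.35%). Only 62 of the higher genes (0.614%) and 43 of the lower genes (0.426%) also changed by 0.58 or more on the log2 scale, and these 105 genes (1.04%) are termed called. The median log2 fold change of all tested genes was 0.03, and 98.9% of them had a change smaller than 0.58. All 3 JOA values lay above all 3 control values for 1670 genes (16.5%) and below them for 900 genes (8.91%). Of the 105 called genes, 81 had groups that did not overlap and 104 moved the same way in all 3 pairs, the exception being CD99.

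**Figure D1:**
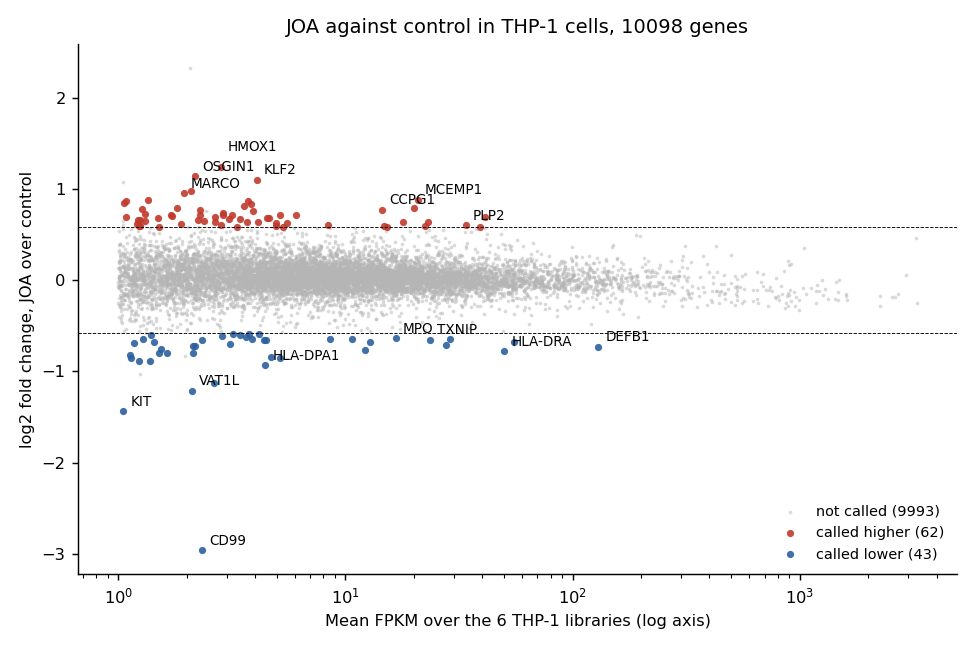
Log2 fold change (JOA over control, on the log2(FPKM + 0.1) scale) against mean FPKM over the 6 THP-1 libraries on a log axis, 1 point per gene for the 10098 genes tested; dashed lines mark 0.58 in each direction. The 62 genes called higher and the 43 called lower are coloured, and 77 of these 105 had a mean under 5 FPKM.

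The pairing matters for these counts. Without the replicate number in the fit, 68 genes passed the adjusted p and 21 were called, all of them among the 105, while 1886 had an unadjusted p under 0.05. Of the 1311 genes that passed in the paired fit, 66.5% were higher, and this share was 56.4% after median-of-ratios rescaling, 54.8% after quantile normalization and 74.3% as TPM. Among called genes the share that was higher was 59%, and it was 46.8% after quantile normalization, while as TPM 77 of 117 called genes were higher. The added 0.1 also holds down the fold change of genes near 1 FPKM.

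The largest rises were in HMOX1, OSGIN1 and KLF2. HMOX1, the enzyme that opens the heme ring, encoded on chromosome 22 from 35380361 to 35394214 (GRCh38), read 1.18, 1.90 and 1.77 FPKM in control libraries 1, 2 and 3 and 3.20, 3.23 and 5.64 FPKM in JOA libraries 1, 2 and 3. All 3 JOA values were above the highest control value, and the log2 fold change was 1.24, SE 0.15 (limma adjusted p = 0.0039; 0.062 without the pairing). OSGIN1, an oxidative stress-induced growth inhibitor, went from 1.31, 0.967 and 1.75 FPKM to 2.87, 2.69 and 3.47 FPKM, again without overlap, a log2 fold change of 1.14, SE 0.11 (limma adjusted p = 0.0024; 0.054 without the pairing). KLF2, a zinc finger transcription factor of quiescent monocytes and lymphocytes, stood at 4.18, 2.73 and 1.15 FPKM in control and 7.43, 5.54 and 3.42 FPKM in JOA libraries. Its groups overlapped, since control library 1 was above JOA library 3, but each JOA library was above the control library of its number (log2 fold change 1.10, SE 0.12, limma adjusted p = 0.003; 0.23 without the pairing).

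Next among the rises came MARCO, a scavenger receptor of macrophages that binds bacteria, at 1.00, 1.19 and 1.66 FPKM in control and 2.15, 2.20 and 3.43 FPKM in JOA libraries (log2 fold change 0.96, SE 0.09). MCEMP1, a membrane protein of mast cells and myeloid cells, was the most abundant of these genes, at 13.4, 12.0 and 18.5 FPKM in control and 27.0, 21.9 and 32.0 FPKM in JOA libraries (log2 fold change 0.88, SE 0.05). The JOA values of both genes lay above all control values. A further 6 rises were between 0.82 and 0.88 on the log2 scale. They were in NLRP12, a regulator of innate immune signalling, RETN (resistin), FCER2 (CD23, the low-affinity IgE receptor), C11orf71, PIR (pirin) and TSC22D3 (GILZ, a glucocorticoid-induced leucine zipper protein). NLRP12, RETN and TSC22D3 had overlapping groups, while FCER2, C11orf71 and PIR did not.

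The largest falls among genes that moved the same way in all 3 pairs were in KIT, VAT1L and UGT3A2. KIT, the receptor for stem cell factor, on chromosome 4 (GRCh38, 54657918 to 54740715), read 1.93, 1.61 and 1.21 FPKM in control and 0.445, 0.623 and 0.489 FPKM in JOA libraries. Its highest JOA value was under the lowest control value, the log2 fold change was -1.43, SE 0.17, and the fall was called with the pairing (limma adjusted p = 0.0038) and without it (0.033). VAT1L, a protein related to a vesicle amine transport protein, fell from 3.33, 3.07 and 2.56 FPKM to 1.12, 1.38 and 1.19 FPKM (log2 fold change -1.21, SE 0.11), and UGT3A2, a UDP-glycosyltransferase, from 4.79, 3.30 and 2.88 FPKM to 1.84, 1.91 and 1.13 FPKM (log2 fold change -1.12, SE 0.12). Both were also without overlap. The other 9 were HLA-DPA1 and HLA-DPB1, described below with their family, TNN (tenascin N), COL27A1 (a fibrillar collagen chain), DEFA4 (a neutrophil defensin), SYNPO (synaptopodin), C16orf74, ASGR2 (a subunit of the asialoglycoprotein receptor) and SYNGR1 (synaptogyrin 1). They lay between -0.93 and -0.80 on the log2 scale, and DEFA4 was the exception among them whose groups overlapped.

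**Figure D2:**
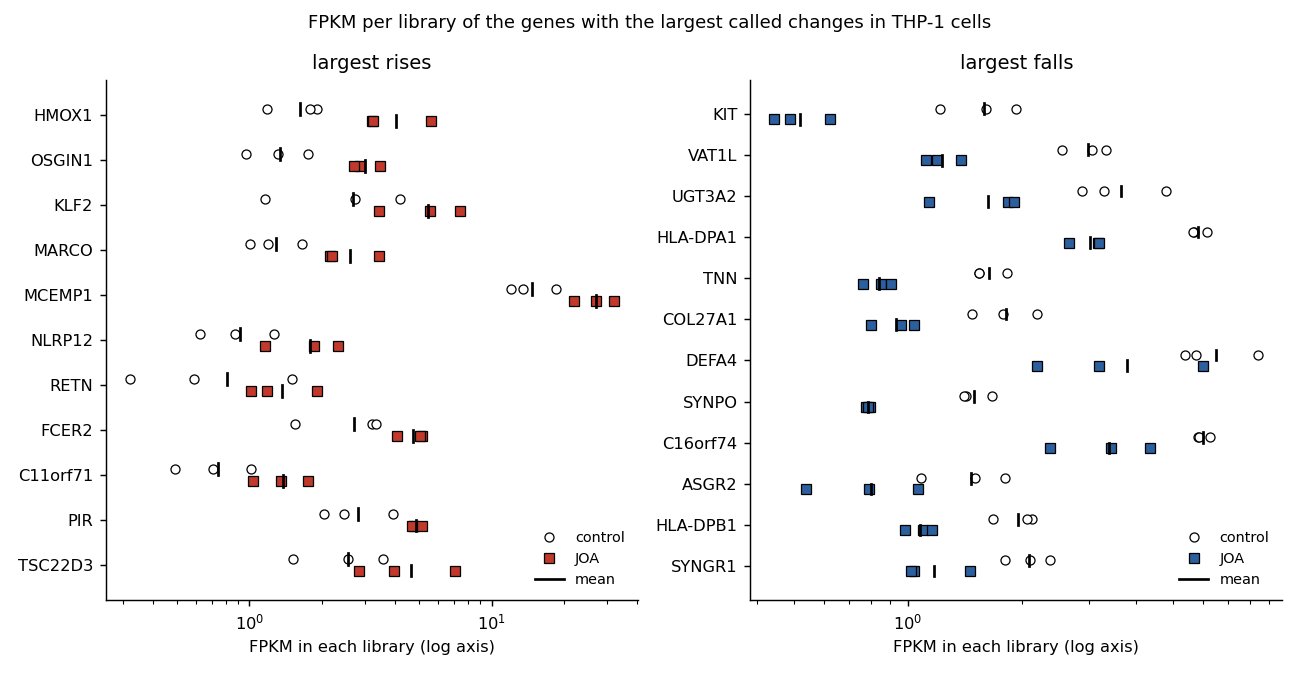
FPKM of each library on a log axis for 11 of the 12 largest rises (left) and the 12 largest falls (right) among called genes that moved the same way in all 3 pairs; open circles are control, filled squares JOA, and bars the mean of 3 libraries. The groups of KLF2, NLRP12, RETN, TSC22D3 and DEFA4 overlap, and those of the other 18 genes do not.

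CD99, a leukocyte surface glycoprotein, had the largest value of any called gene, at a log2 fold change of -2.96, SE 0.76, and it rested on 2 control libraries. It read 0.207, 8.07 and 5.16 FPKM in control and 0.221, 0.222 and 0.173 FPKM in JOA libraries, so that control library 1 was as low as the JOA libraries. The change was -4.46 without the first pair and -2.10 without the second, and without the pairing it was not called (limma adjusted p = 0.19). CD99 lies in the pseudoautosomal region, where fragments fit copies on both sex chromosomes. In addition, BOLA2 (2.32, SE 1.20), MOB4 (1.08, SE 0.49) and C8orf44-SGK3 (-1.03, SE 0.31) had log2 fold changes of at least 1 in size and did not pass the adjusted p. BOLA2 was above 0 in JOA library 3 alone. Each of them shares sequence or exons with other annotated loci.

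Genes driven by NRF2 rose as a group. Of 26 tested members of a list of NRF2 antioxidant genes, 18 were higher (69.2%, beside 8.64% of all tested genes), 0 were lower, and the median log2 fold change was 0.37 beside 0.03 for all genes. Groups did not overlap in 18 members, all with JOA above control, as in 16.5% of all tested genes. The list was chosen with HMOX1 known to be higher in these libraries, so its direction is not independent evidence. Only 5 members passed without the pairing, namely FTL, NQO1, SRXN1, PGD and SQSTM1.

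Within this list the iron storage genes were the most abundant. FTL, the ferritin light chain, read 2694, 2679.6 and 2846 FPKM in control and 3780.5, 3616 and 3922 FPKM in JOA libraries (log2 fold change 0.46, SE 0.05, limma adjusted p = 0.0026), and FTH1, the heavy chain, read 365, 378 and 368 FPKM and 467, 455 and 524 FPKM (0.38, SE 0.05). Every JOA value of both genes was above every control value, although both have processed pseudogenes that can take or give fragments. Among the enzymes that regenerate NADPH, PGD rose from 156, 152 and 164 FPKM to 239, 205 and 224 FPKM (log2 fold change 0.50, SE 0.05), and ME1 (0.52), TKT (0.23) and TALDO1 (0.20) rose as well. For the thiol enzymes, SRXN1 (sulfiredoxin, 0.45), TXNRD1 (thioredoxin reductase, 0.37), GSR (glutathione reductase, 0.37) and GCLM (the modifier subunit of glutamate-cysteine ligase, 0.36) rose. The catalytic subunit GCLC (-0.05, SE 0.06) and the cystine transporter SLC7A11 (0.15, SE 0.06) did not pass. NQO1, a quinone reductase, went from 26.7, 23.4 and 22.9 FPKM to 33.6, 31.7 and 32.4 FPKM (0.42, SE 0.05), whereas the factor itself, NFE2L2 (0.08, SE 0.04), and its inhibitor KEAP1 (0.13, SE 0.04) did not pass.

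PIR, an iron-binding nuclear protein and the other called member beside HMOX1 and OSGIN1, read 3.91, 2.47 and 2.03 FPKM in control and 4.81, 4.69 and 5.18 FPKM in JOA libraries. Its JOA values were close to each other and above all control values (log2 fold change 0.83, SE 0.16, limma adjusted p = 0.016; 0.087 without the pairing). SQSTM1, the autophagy receptor p62, which also binds KEAP1, rose from 29.2, 29.1 and 29.3 FPKM to 43.4, 37.7 and 46.0 FPKM (log2 fold change 0.53, SE 0.06). The heme and iron list shares members with the NRF2 list, HMOX1 among them, so it is not a separate count. Of its 18 tested genes, 6 were higher (33.3%, beside 8.64% of all tested genes) and 0 lower, and 1 passed without the pairing. The 6 included BLVRB, a biliverdin reductase (0.34). Of 22 carbonyl and xenobiotic metabolism genes, 6 were higher (27.3%, beside 8.64%) and 1 lower (4.55%, beside 4.35%), and 0 passed without the pairing. The aldo-keto reductase AKR1C1 was called at 0.64, SE 0.07, and the aldehyde dehydrogenase ALDH2 was lower at -0.53, SE 0.06.

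Promoter sequences are shown because these genes moved together and NRF2 has a known DNA element. The core TGACNNNGC was searched on both strands in the 250 bases before the start site of each RefSeq promoter (GRCh38.p14), and it was in 10.9% of 35116 promoters, in 7 of 24 promoters of the NRF2 list and in 2 of 8 promoters of MHC class II genes. The 24 promoters covered 19 of the 26 tested NRF2 list genes. HMOX1 had no promoter among those available, so it was not searched. The 6 NRF2 list genes that held the core were GCLM, GSTM1, KEAP1, ME1, PGD and TXNRD1. Windows of 60 bases around the match, in capitals, are given for 3 of them on the strand of the gene: ME1 at chr6:83431155-83431214 (minus strand), TXNRD1 at chr12:104215654-104215713 (plus strand) and GCLM at chr1:93909431-93909490 (minus strand, where the match reads on the opposite strand).
ME1: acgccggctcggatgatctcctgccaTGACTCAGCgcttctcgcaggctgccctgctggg
TXNRD1: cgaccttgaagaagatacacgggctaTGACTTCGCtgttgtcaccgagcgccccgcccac
GCLM: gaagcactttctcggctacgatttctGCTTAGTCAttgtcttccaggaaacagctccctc
The called members OSGIN1 (chr16:83952990-83953239, plus strand) and PIR (chrX:15493334-15493583, minus strand) had no match in these 250 bases, which says only that the letters are not in this window.
OSGIN1: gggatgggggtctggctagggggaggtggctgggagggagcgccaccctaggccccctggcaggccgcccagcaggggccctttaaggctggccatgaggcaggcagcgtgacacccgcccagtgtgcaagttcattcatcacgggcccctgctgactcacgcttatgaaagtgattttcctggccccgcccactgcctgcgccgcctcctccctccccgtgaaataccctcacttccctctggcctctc
PIR: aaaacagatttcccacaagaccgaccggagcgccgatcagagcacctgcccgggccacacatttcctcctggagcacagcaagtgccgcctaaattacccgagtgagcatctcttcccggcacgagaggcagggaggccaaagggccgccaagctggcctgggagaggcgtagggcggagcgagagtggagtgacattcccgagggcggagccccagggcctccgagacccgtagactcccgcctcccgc
A match is a stretch of letters and not a measured binding site.

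Most of the lysosomal genes tested rose as well. Of 43 tested lysosomal genes, 27 were higher with JOA (62.8%, beside 8.64% of all tested genes) and 0 were lower. All 43 had a log2 fold change above 0, as had 5944 of all 10098 tested genes, and the median of the list was 0.28. The medians of the 3 pairs were 0.40, 0.23 and 0.20, so that the first pair showed the most. JOA groups lay above control without overlap in 26 members (16.5% of all tested genes), and 5 members (LAMP1, ARSB, MCOLN1, CTSL and SMPD1) passed without the pairing. SMPD1, the acid sphingomyelinase, had the largest change, from 1.54, 1.61 and 1.99 FPKM to 2.80, 2.72 and 3.04 FPKM (log2 fold change 0.71, SE 0.09, limma adjusted p = 0.004). TPP1, a peptidase of the lysosomal lumen, was called at 0.59, SE 0.09, with 24.2, 33.9 and 36.5 FPKM in control and 45.8, 42.8 and 52.0 FPKM in JOA libraries, and its change was 0.42 without the first pair.

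The changes covered proteases, glycosidases, lipid enzymes and membrane proteins alike. Of the proteases, CTSL rose from 17.7, 20.6 and 18.3 FPKM to 26.5, 26.9 and 29.6 FPKM (log2 fold change 0.55, SE 0.06) and CTSD, an abundant aspartic protease, from 137, 155 and 205 FPKM to 218, 206 and 269 FPKM (0.49, SE 0.06). For the lipid-handling proteins, NPC2 (0.53) and NPC1 (0.32), which export cholesterol, and ASAH1 (acid ceramidase, 0.49) rose. Among the hydrolases of sugars, ARSB (0.48) and GUSB (0.43) rose. The calcium channel MCOLN1 rose from 4.07, 3.77 and 3.89 FPKM to 5.92, 5.44 and 5.36 FPKM (0.50, SE 0.06), and the membrane proteins LAMP1 (0.39) and LAMP2 (0.28) rose by less. PPT1, the most abundant of those named here, read 839, 774 and 852 FPKM in control and 1013, 884 and 949 FPKM in JOA libraries, a small shift (0.21, SE 0.05) without overlap.

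Subunits of the vacuolar proton pump, which acidifies the lysosome, also rose. Of 18 tested subunits, 11 were higher (61.1%, beside 8.64% of all tested genes) and 0 lower, with a median log2 fold change of 0.19, led by ATP6V0A1 (0.43, SE 0.08), ATP6V0D1 (0.34, SE 0.06) and ATP6V1H (0.31, SE 0.07). Both arms of the pump, the membrane ring and the cytosolic head, were represented, since ATP6V1A of the head rose from 19.4, 19.5 and 19.97 FPKM to 24.4, 24.3 and 23.0 FPKM. None of the subunits passed without the pairing, and 5 passed when the second pair was left out. In a list of 29 autophagy genes, 7 were higher (24.1%, beside 8.64%) and 0 lower, with a median of 0.08 that was close to the 0.03 of all genes. Besides SQSTM1 these included CCPG1, a receptor for autophagy of the endoplasmic reticulum, which was called. It read 10.1, 9.95 and 11.9 FPKM in control and 18.0, 17.0 and 19.8 FPKM in JOA libraries (log2 fold change 0.77, SE 0.05, limma adjusted p = 0.00063; 0.031 without the pairing). TFE3, a transcription factor of lysosomal genes, rose by 0.35, SE 0.06, and MAP1LC3B (0.34), GABARAPL1 (0.43) and TEX264 (0.37) rose as well.

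**Figure D3:**
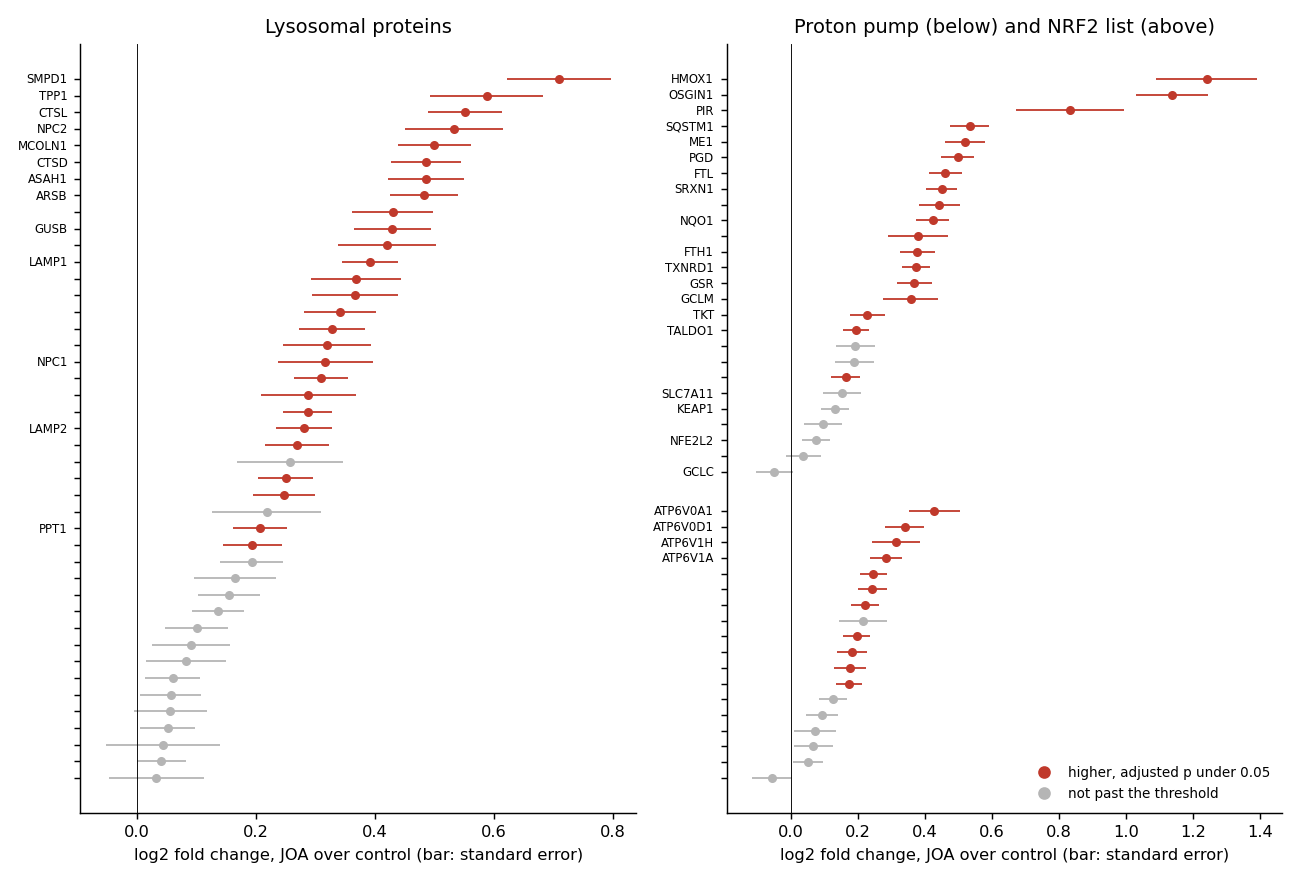
Log2 fold change (JOA over control) with its standard error for each tested lysosomal gene (left), NRF2 list gene (right, upper block) and proton pump subunit (right, lower block); red points have an adjusted p under 0.05, and genes given in the text are labelled. All 43 lysosomal points lie above 0, and 27 of 43, 18 of 26 and 11 of 18 genes passed, none of them downwards.

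MHC class II genes fell. All 8 members that passed the filter, of 15 in the list, had a log2 fold change below 0, as had 4154 of all 10098 tested genes. Of the 8, 6 passed the test (75%, beside 4.35% of all tested genes), and in 7 the JOA values lay below all control values (8.91% of all tested genes). The median log2 fold change was -0.47. Several of these genes are named by the study for these cells, so the list is not independent evidence of the direction. HLA-DRA, the alpha chain of the DR molecule, on chromosome 6 from 32439842 to 32445046 (GRCh38), was the most abundant of the 3 called members. It read 70.9, 59.5 and 59.2 FPKM in control and 38.7, 34.9 and 36.5 FPKM in JOA libraries, with a wide gap between the groups (log2 fold change -0.78, SE 0.05, limma adjusted p = 0.00063; 0.03 without the pairing).

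For the DP pair, HLA-DPA1 (chromosome 6, 33064569 to 33080775) fell from 6.18, 5.69 and 5.66 FPKM to 2.67, 3.19 and 3.20 FPKM (log2 fold change -0.93, SE 0.09) and HLA-DPB1 from 2.13, 1.68 and 2.06 FPKM to 1.10, 0.983 and 1.16 FPKM (-0.80, SE 0.10). CD74, the invariant chain that escorts class II molecules to the endosome, fell by less, from 70.9, 76.5 and 74.5 FPKM to 58.0, 56.1 and 55.7 FPKM (-0.38, SE 0.05). The DR beta genes HLA-DRB5 (-0.55, SE 0.07) and HLA-DRB1 (-0.28, SE 0.04) fell as well, but they are close copies and fragments can be split between them. HLA-DQB1 overlapped between groups (-0.11, SE 0.08) and the peptide editor HLA-DMA did not pass (-0.35, SE 0.10). Below the filter, HLA-DQA1 read 0.372, 0.274 and 0.394 FPKM in control and 0.114, 0.143 and 0.125 FPKM in JOA libraries, and it was not tested. Without the pairing 5 of the 8 passed.

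The promoters of these genes are shown with the Y box, CTGATTGG, which was searched on both strands of the same 250 bases. It was in 3.81% of all promoters, in 4 of 8 promoters of MHC class II genes (HLA-DMA, HLA-DQB1, HLA-DRB1 and HLA-DRB5) and in 0 of 24 promoters of the NRF2 list. The 8 promoters covered 7 of the 8 tested MHC class II genes. HLA-DRA had no promoter among those available, so it was not searched for either motif. Windows of 60 bases with the match in capitals are given for the close copies HLA-DRB1 (chr6:32589864-32589923, minus strand) and HLA-DRB5 (chr6:32530347-32530406, minus strand).
HLA-DRB1: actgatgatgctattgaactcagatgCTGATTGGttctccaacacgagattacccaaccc
HLA-DRB5: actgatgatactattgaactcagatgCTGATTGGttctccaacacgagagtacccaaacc
The called member HLA-DPB1 (chr6:33075740-33075989, plus strand) had no exact match, and neither had either start site of HLA-DPA1. Both start sites of HLA-DPA1 held the antioxidant core instead, and HLA-DPB1 did not. The core is in capitals in the HLA-DPA1 promoter printed here (chr6:33073650-33073899, minus strand).
HLA-DPB1: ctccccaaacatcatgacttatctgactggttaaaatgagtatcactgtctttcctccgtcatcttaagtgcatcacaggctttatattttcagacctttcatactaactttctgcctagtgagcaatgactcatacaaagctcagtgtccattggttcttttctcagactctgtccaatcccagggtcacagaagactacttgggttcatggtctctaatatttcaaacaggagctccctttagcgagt
HLA-DPA1: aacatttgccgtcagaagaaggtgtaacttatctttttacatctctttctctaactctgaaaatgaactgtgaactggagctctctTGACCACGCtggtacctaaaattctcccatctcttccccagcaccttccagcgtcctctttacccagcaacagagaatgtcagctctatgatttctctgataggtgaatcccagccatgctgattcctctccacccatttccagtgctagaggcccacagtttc

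Class I genes moved in both directions. Of 16 tested genes of MHC class I and peptide loading, 6 were lower (37.5%, beside 4.35% of all tested genes) and 3 higher (18.8%, beside 8.64%), with a median log2 fold change of -0.10, and 0 passed without the pairing. Those that fell included HLA-B (-0.41, SE 0.04), HLA-C (-0.30, SE 0.05), the peptide transporter TAP1 (-0.31, SE 0.06) and the immunoproteasome subunits PSMB9 (-0.54, SE 0.07) and PSMB8 (-0.18, SE 0.04). HLA-B went from 189, 244 and 233 FPKM to 135, 189 and 181 FPKM, lower in each pair but overlapping between the groups. The aminopeptidase ERAP1 (0.26), the chaperone PDIA3 (0.17) and tapasin, TAPBP (0.17), rose.

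**Figure D4:**
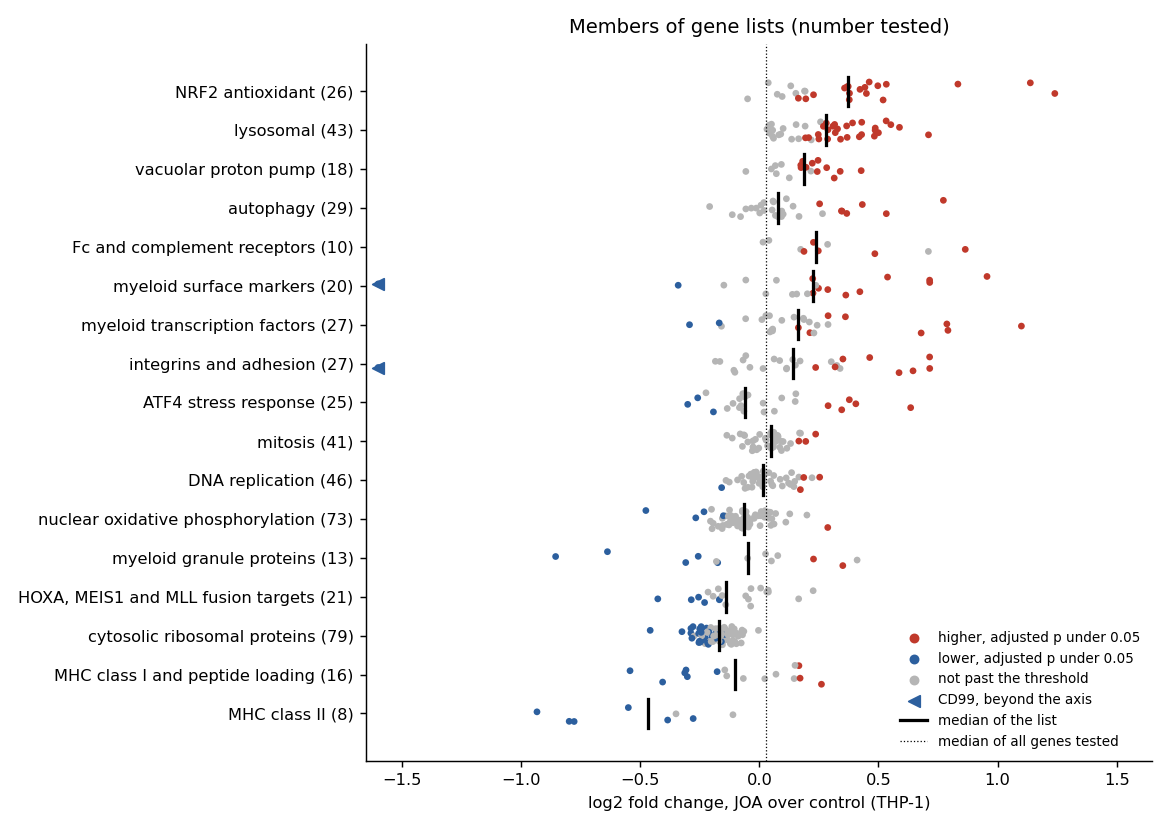
Log2 fold change (JOA over control) of every tested member of 17 gene lists, with the number tested in brackets; red and blue points have an adjusted p under 0.05, black bars are list medians and the dotted line is the median of all genes tested (0.03). The NRF2 and lysosomal lists sit to the right (medians 0.37 and 0.28) and MHC class II to the left (-0.47), and the triangles at the edge are CD99, in 2 lists, at -2.96.

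Several genes of the myeloid surface rose. Of 20 tested surface markers, 10 were higher (50%, beside 8.64% of all tested genes) and 2 lower (CD99 and CX3CR1, 10% beside 4.35%), with a median log2 fold change of 0.22, and 0 passed without the pairing. ITGAM, the CD11b integrin chain, on chromosome 16 from 31259967 to 31332892 (GRCh38), read 2.81, 4.43 and 4.58 FPKM in control and 6.77, 6.47 and 5.94 FPKM in JOA libraries. The groups did not overlap and the log2 fold change was 0.71, SE 0.14 (limma adjusted p = 0.019; 0.083 without the pairing), but it was 0.45 without the first pair, where control was lowest and JOA highest. ITGAX (CD11c) was called at 0.72, SE 0.18 with overlapping groups (1.05, 2.57 and 3.28 FPKM against 2.86, 3.73 and 3.95 FPKM) and was 0.39 without the first pair. Smaller rises were seen in CD68, a macrophage lysosomal glycoprotein (0.36), ANPEP (CD13, 0.42), CD33 (0.29), the scavenger receptor CD36 (0.23) and FUT4, which makes the CD15 carbohydrate (0.22). Of the 36 genes in the list, 16 were below the filter and not tested, among them CD14, CD86, CD163, MRC1, SIGLEC1 and LILRB2. The monocytic marker list given above, which shares some of these genes, summed lower with JOA in each pair, a sum weighted to its most abundant genes. The median log2 fold changes of that list were 0.02, -0.03 and -0.13 in pairs 1, 2 and 3, with 3 genes higher and 3 lower.

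Among 27 integrin and adhesion genes, 8 were higher (29.6%, beside 8.64% of all tested genes) and 1 lower (CD99), with a median of 0.14. ITGAL, the CD11a chain, rose from 9.37, 13.9 and 13.6 FPKM to 17.3, 19.1 and 18.3 FPKM (log2 fold change 0.59, SE 0.09, 0.44 without the first pair), and OCLN, the tight junction protein occludin, from 1.13, 0.901 and 0.952 FPKM to 1.96, 1.32 and 1.59 FPKM (0.65, SE 0.11). The Fc and complement receptor list had 10 tested members, and 5 of them passed, all upwards (50%, beside 8.64% of all tested genes). All 10 had a log2 fold change above 0, as had 5944 of all 10098 tested genes. FCER2 was called, at 1.54, 3.21 and 3.32 FPKM in control and 4.07, 5.14 and 5.04 FPKM in JOA libraries (0.86, SE 0.14), and the high-affinity IgG receptor FCGR1A rose by 0.23, SE 0.05. The IgA receptor FCAR did not pass (log2 fold change 0.71, SE 0.22, limma adjusted p = 0.075), although its JOA values (2.17, 1.42 and 1.42 FPKM) were above its control values (0.701, 1.10 and 1.14 FPKM). Of 14 Toll-like receptor genes, 3 were higher (21.4%, beside 8.64% of all tested genes) and 2 lower (14.3%, beside 4.35%). TLR6, which pairs with TLR2 at the surface, was called at 0.60, SE 0.13 on values near 1 FPKM (0.825, 1.09 and 0.979 against 1.59, 1.49 and 1.44), and was 0.46 without the first pair. Of 7 phagocyte NADPH oxidase genes, NCF1 (0.54, SE 0.06) and CYBB (0.43, SE 0.07) rose (28.6%, beside 8.64% of all tested genes).

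Transcription factors of the myeloid lineage shifted upwards in part. Of 27 tested, 8 were higher (29.6%, beside 8.64% of all tested genes) and 2 lower (7.41%, beside 4.35%), the median log2 fold change was 0.16, and 0 passed without the pairing. Beside KLF2, the called factors included ID1, an inhibitor of basic helix-loop-helix factors, from 13.5, 6.501 and 26.0 FPKM to 17.2, 17.6 and 39.2 FPKM (0.79, SE 0.17), and EGR1, an immediate early zinc finger factor. EGR1 read 2.99, 3.48 and 3.88 FPKM in control and 4.82, 5.33 and 6.64 FPKM in JOA libraries, without overlap (0.68, SE 0.07, limma adjusted p = 0.0024). ID1 spread widely among control libraries and was 0.47 without the second pair. SPI1 (PU.1, 0.16) and CEBPB (0.29) rose by less, and MYC (-0.17) and IRF5 (-0.29) fell. In a list of MAPK target and feedback genes, 3 of 11 tested genes passed, all upwards (27.3%, beside 8.64% of all tested genes). They were FOSL1 (0.52), ETV4 (0.47) and ETV5 (0.48), transcription factors transcribed in response to MAPK activity. No DUSP phosphatase or Sprouty gene was among them. Of the 24 genes in the list, 13 were below the filter, including DUSP1, DUSP4, SPRY1 and SPRY4.

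Some genes of the immature and MLL-driven state fell by small amounts. In the list of HOXA genes, MEIS1 and MLL fusion targets, 5 of 21 tested genes were lower (23.8%, beside 4.35% of all tested genes) and 0 higher, the median log2 fold change was -0.14, and 0 passed without the pairing. FLT3, the FLT3 ligand receptor, fell from 13.2, 17.8 and 16.1 FPKM to 10.5, 12.9 and 11.4 FPKM without overlap (-0.43, SE 0.05). CDK6 (-0.26, SE 0.06), JMJD1C (-0.29, SE 0.06), HOXA11 (-0.23, SE 0.06) and ZEB2 (-0.17, SE 0.04) were the other 4. KIT, described above, was the called member of the growth factor and cytokine receptor list. In that list 3 of 20 genes were higher (15%, beside 8.64% of all tested genes) and 2 lower (10%, beside 4.35%).

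Granule proteins of early myeloid cells moved in both directions. Of 13 tested, 5 were lower (38.5%, beside 4.35% of all tested genes) and 2 higher, and 0 passed without the pairing. MPO, myeloperoxidase, read 28.3, 19.1 and 13.2 FPKM in control and 18.5, 13.2 and 7.68 FPKM in JOA libraries, so that each JOA library was below the control library of its number while the groups overlapped (-0.64, SE 0.06, limma adjusted p = 0.0022; 0.36 without the pairing). DEFA4 followed the same form, with 8.41, 5.38 and 5.77 FPKM against 6.01, 3.19 and 2.20 FPKM (-0.86, SE 0.14). The serine proteases CTSG (-0.31, SE 0.05) and ELANE (-0.17, SE 0.04) and the ribonuclease RNASE3 (-0.26, SE 0.07) fell by less. SRGN, serglycin, the proteoglycan on which granule contents are packed, rose (0.35, SE 0.05), as did SERPINB1, an inhibitor of granule proteases (0.23, SE 0.05).

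Cytosolic ribosomal protein genes showed small shifts downwards. Of 79 tested, 27 were lower (34.2%, beside 4.35% of all tested genes) and 0 higher. Of all 10098 tested genes, 4154 had a log2 fold change below 0. All 79 of the ribosomal protein genes were below 0, with a median of -0.17. Among them, 49 had JOA values below all control values (8.91% of all tested genes), RPS29 most (-0.46, SE 0.07), while RPLP1, at 3319, 3624 and 3786 FPKM in control and 2788, 3042 and 3231 FPKM in JOA libraries, changed by -0.24, SE 0.05. The first pair showed a median of -0.28 and the other pairs -0.10 and -0.12. The number lower was 40 after median-of-ratios rescaling, 39 as TPM, 16 after quantile normalization and 0 without the pairing, and leaving out a pair gave between 9 (the last pair) and 42 (the first). These genes have many processed pseudogenes. Of 31 ribosome biogenesis genes, FBL (fibrillarin) alone passed, lower at -0.30, SE 0.04 (3.23% lower, beside 4.35% of all tested genes). Of 73 nuclear genes for oxidative phosphorylation, 4 were lower (5.48%, beside 4.35%) and 1 higher (1.37%, beside 8.64%), with NDUFB1 lowest (-0.48, SE 0.06).

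Few genes of mitosis and DNA replication passed the test. Of 41 mitosis genes 3 were higher and 0 lower (median log2 fold change 0.05), and of 46 DNA replication genes 3 were higher and 1 lower (median 0.02), shares no higher than those of all genes. The largest rise among the mitosis genes was in HMMR (0.24, SE 0.05). In the list of G1 cyclins and CDK inhibitors, 2 of 18 genes were higher (11.1%, beside 8.64% of all tested genes) and 4 lower (22.2%, beside 4.35%). None of the list passed without the pairing. CDKN2D, which encodes the inhibitor p19INK4d, rose from 5.22, 5.61 and 4.38 FPKM to 6.97, 7.43 and 7.31 FPKM (0.51, SE 0.08), and CCND3 rose by 0.17, SE 0.04. CDKN1A (-0.18, SE 0.04), CDK2 (-0.16, SE 0.04), CDK6 and MYC fell. Of 19 p53 targets, 1 was higher (5.26%, beside 8.64% of all tested genes) and 2 lower (10.5%, beside 4.35%). Of 15 BCL2 family genes, BAX was higher (0.25, SE 0.05) and BIK lower (-0.40, SE 0.07), 6.67% in each direction. In bulk libraries, a change in the share of cells of a kind and a change per cell cannot be told apart.

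Stress and metal genes showed separate directions. The ATF4 stress response list held 5 higher (20%, beside 8.64% of all tested genes) and 3 lower (12%, beside 4.35%) of 25 genes. The median of the list was -0.06. Its called member was TRIB3, a pseudokinase that restrains ATF4, which rose from 20.3, 17.6 and 16.1 FPKM to 31.4, 25.6 and 26.9 FPKM (0.64, SE 0.05, limma adjusted p = 0.0018), and DDIT3 (CHOP, 0.38) and PPP1R15A (0.41) rose too. Of 21 heat shock genes 4 were higher (19%, beside 8.64%) and 0 lower, up to 0.36, SE 0.06 in BAG3. In the list of metallothioneins, which bind zinc and copper, and zinc transporters, 5 of 17 genes were lower (29.4%, beside 4.35%) and 1 higher (5.88%, beside 8.64%). MT1G was called at -0.71, SE 0.07 (46.4, 32.4 and 24.2 FPKM against 31.8, 17.2 and 15.0 FPKM, overlapping between groups), and MT2A (-0.56, SE 0.06), MT1F (-0.55, SE 0.10) and MT1E (-0.43, SE 0.05) fell as well. They are close copies of each other. TXNIP, the inhibitor of thioredoxin, which is induced by glucose, fell from 24.3, 31.1 and 31.0 FPKM to 15.6, 19.99 and 19.2 FPKM without overlap (-0.65, SE 0.04). In lipid metabolism, SREBF1 (-0.38, SE 0.05) and SCD (-0.28, SE 0.04) fell while the lipid droplet protein PLIN2 (0.45, SE 0.05) and ACSL1 (0.54, SE 0.06) rose. Of 30 synthesis genes, 5 were lower (16.7%, beside 4.35%) and 3 higher (10%, beside 8.64%). ALOX5, which starts leukotriene synthesis, was called at 0.66, SE 0.14 and its activating protein ALOX5AP rose from 22.4, 29.7 and 39.1 FPKM to 35.6, 41.1 and 57.2 FPKM (0.56, SE 0.05), with overlapping groups in both.

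Called genes outside these lists included some of the most abundant. DEFB1, an epithelial defensin also made by monocytes, fell from 177, 142 and 166 FPKM to 103, 101 and 89.0 FPKM (-0.73, SE 0.07), and it was called with and without the pairing (limma adjusted p without it 0.033). RFLNB (refilin B, which bundles actin through filamin) rose from 30.8, 28.5 and 34.4 FPKM to 53.4, 45.1 and 53.7 FPKM (0.70, SE 0.05) and was likewise called in both fits. ANXA1, an anti-inflammatory annexin (0.64, SE 0.05), the TWEAK receptor TNFRSF12A (0.66, SE 0.09), the interleukin 27 receptor chain IL27RA (0.62, SE 0.06) and the medium-chain fatty acid receptor GPR84 (0.77, SE 0.13) rose without overlap between the groups. Of the 105 called genes, 32 were members of the 44 functional lists, 24 higher and 8 lower.

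Of 18 genes that the study names for THP-1 cells and that are reported here, 13 passed the filter, 6 of these were called higher (HMOX1, MARCO, FCER2, ITGAM, OCLN and TLR6), 5 were called lower (CD99, KIT, HLA-DPA1, HLA-DPB1 and HLA-DRA), HLA-DRB5 fell without reaching the fold threshold and FCAR did not pass. The study chose these genes on these libraries. The remaining 5 were below the filter and not tested. HLA-DQA1 is given above, and HLA-F, CR1, TUBA8 and TUBB4A were below a mean of 1 FPKM. CR1, a complement receptor, read 0.0804, 0.0756 and 0.118 FPKM in control and 0.295, 0.0995 and 0.270 FPKM in JOA libraries.

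To show where the THP-1 response differed from that of MOLM-13 cells, the difference between the 2 JOA effects was tested over all 12 libraries. It passed the adjusted p for 60 of 10098 genes (0.594%), and line and dose cannot be told apart because MOLM-13 received 0.5 μM. RFLNB differed most by p value. It rose in THP-1 cells, as given above, while MOLM-13 cells read 66.4, 63.9 and 51.9 FPKM in control and 65.3, 61.5 and 53.2 FPKM in JOA libraries (difference of log2 fold changes 0.71, SE 0.06). PLP2, a membrane protein of the endoplasmic reticulum, went from 33.3, 26.1 and 21.1 FPKM to 52.4, 37.8 and 32.5 FPKM in THP-1 cells, higher in each pair, and from 123, 123 and 128 FPKM to 128, 120.3 and 128 FPKM in MOLM-13 cells (difference 0.59, SE 0.06). GAS6, a ligand of the AXL and MERTK receptors, fell in THP-1 cells from 42.0, 40.3 and 42.6 FPKM to 29.5, 31.8 and 29.5 FPKM, and in MOLM-13 cells it read 74.6, 56.1 and 70.4 FPKM in control and 97.1, 67.3 and 78.3 FPKM in JOA libraries (difference -0.72, SE 0.08). TRIB3 read 11.7, 25.1 and 17.7 FPKM in control and 11.8, 19.6 and 14.9 FPKM in JOA libraries of MOLM-13 cells (difference 0.83, SE 0.10).

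Members of the THP-1 groups above that differed included CCPG1, MCOLN1, ARSB, TXNRD1 and EGR1, higher in THP-1 cells, and HLA-B, FLT3, MPO and IRF5, lower in THP-1 cells. For TXNRD1 the log2 fold change was 0.37 in THP-1 and 0.02 in MOLM-13 cells, for MCOLN1 0.50 and 0.02, and for FLT3 -0.43 and 0.05. CDKN1A fell in THP-1 cells (-0.18) and was 0.25 in MOLM-13 cells. HMOX1 (1.24 against 0.42; limma adjusted p of the difference = 0.15), HLA-DRA (-0.78 against -0.10; 0.13) and KIT (-1.43 against -0.31; 0.12) did not pass for a difference. The count of 60 rested on the pairing and on every pair, since it was 0 without the pairing (741 genes at an unadjusted p under 0.05) and 3, 0 and 0 when pair 1, 2 or 3 of both lines was left out. In the last 2 of these fits, 1058 and 1228 genes had an unadjusted p under 0.05.

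**Figure D5:**
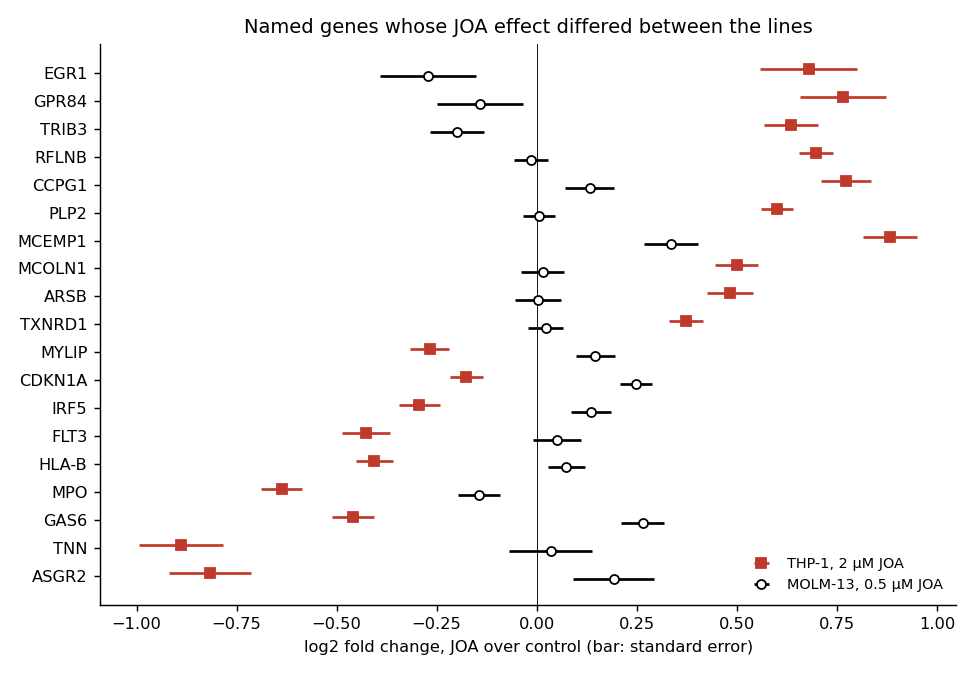
Log2 fold change (JOA over control) with its standard error in THP-1 cells at 2 μM (squares) and MOLM-13 cells at 0.5 μM (circles) for the named genes whose difference passed an adjusted p under 0.05 in the fit of all 12 libraries. The THP-1 points lie farther from 0 than the MOLM-13 points for every gene plotted except CDKN1A. Most of these genes were named for their change in THP-1 cells, so this pattern follows in part from how they were chosen.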

How the data were processed

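Polyadenylated RNA was sequenced by the authors (TruSeq Stranded mRNA, HiSeq X10, paired-end), and the submitters' processing notes name Trimmomatic, HISAT2, Cufflinks, HTSeq and the hg38 genome, with versions not given in the sources used here. The authors deposited FPKM per gene and library, with 3 libraries in each of 4 groups. The study's own differential test models counts, which FPKM are not, so limma 3.58.1 (R 4.3.3) was run here on log2(FPKM + 0.1) with pairs of equal number as blocks, a mean-variance trend in eBayes, and p-values adjusted by Benjamini-Hochberg over 10098 genes. The step was tried on simulated data whose changes were larger than those of most called genes, so that trial does not cover most calls. Depth in reads is unknown, since FPKM does not give totals.

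Same-numbered control and JOA libraries deviated together from their group means (correlations 0.466, 0.297 and 0.541, against -0.439 to -0.0560 for unlike numbers). Deviations from a group mean cancel within the group, so the negative values are tied to the positive ones and are not separate evidence. The pairing was taken from the shared numbers in the labels. How these numbers were assigned is not stated in the sources used here, so the pairing is an assumption. The largest share of identical values between any pair of libraries was 0.0198%.

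Genes were named by this rule: the 12 largest rises and falls among called genes moving the same way in all pairs (symbols starting with LOC left out), genes the study names, the called members or up to 4 smallest p-values of each list, the 4 smallest interaction p-values, and the genes at the filter. Other genes in the text were chosen after their values were seen. The members and lists were chosen with earlier results of these data known. The table lists 27 symbols that read as dates, and 0 of 13 mitochondrially encoded genes. The alternatives were other pseudocounts, filters, scalings and thresholds, no block, no trend, a fit of all 12 libraries, and leaving out each pair. Motifs were searched in 250 bases before 35116 RefSeq starts. Gene positions are from GENCODE v29 (GRCh38). Some genes that meet this rule, 1 of them named by the study, are not reported here. Python 3.11.15, pandas 2.3.3 and matplotlib 3.10.9 were used.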

Additional observations from a re-analysis of the deposited data

Results flagged for a closer look

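The JOA effect differed between THP-1 cells at 2 μM and MOLM-13 cells at 0.5 μM for 60 genes by a test of the difference itself (limma, adjusted p under 0.05), and 19 of the genes named in the text were among them. Differences are given as the THP-1 minus the MOLM-13 log2 fold change, and line and dose cannot be told apart. Higher in THP-1 cells were EGR1 by 0.95, GPR84 by 0.91, TRIB3 by 0.83, RFLNB by 0.71, CCPG1 by 0.64, PLP2 by 0.59, MCEMP1 by 0.55, the lysosomal genes MCOLN1 by 0.48 and ARSB by 0.48, and TXNRD1 by 0.35. Lower in THP-1 cells were ASGR2 (-1.01), TNN (-0.92), GAS6 (-0.72), MPO (-0.49), HLA-B (-0.48), FLT3 (-0.48), IRF5 (-0.43), CDKN1A (-0.42) and MYLIP (-0.41), an E3 ligase of lipoprotein receptors. GPR84 went from 1.55, 1.52 and 1.89 FPKM to 3.41, 2.07 and 3.33 FPKM in THP-1 cells and from 5.69, 7.31 and 5.96 FPKM to 5.49, 6.49 and 5.15 FPKM in MOLM-13 cells.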

How the results depend on the processing

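All 105 called genes kept their direction under every alternative fit that was run, but this was largely fixed in advance. Of the 105, 104 moved the same way in all 3 pairs, so leaving out a pair could not reverse them. Leaving out the block or the trend does not alter a fold change. The number of called genes depended on the setting. With no replicate block 21 genes were called (10 higher, 11 lower), with a pseudocount of 1 in place of 0.1, 36 (18 and 18), and with the limit at a mean of 0.1 FPKM, 161 (81 and 80). With every gene above 0 in the fit, 0 passed in limma (3312 at an unadjusted p under 0.05, smallest adjusted p 0.0667), and the cause was not tested. By the adjusted p alone, 1311 passed (872 higher, 439 lower). Leaving out 1 pair gave 101 to 155 called genes, 56 to 96 higher and 45 to 59 lower, from fits with 1 residual degree of freedom. The count of genes whose effect differed between the lines was 0 with no replicate block, 131 with a pseudocount of 1 and 0 to 3 without a replicate number. Of 52 called genes among those named in the text or by the rule, 39 were no longer called with no replicate block, 25 with a pseudocount of 1 and 5 after median-of-ratios rescaling, all in the same direction. In the B cell marker CD79B, which did not pass, the log2 fold change of 0.01 turned to -0.0097 after median-of-ratios rescaling and -0.027 after quantile normalization, and ranged from -0.064 to 0.066 when a pair was left out. BOLA2, which did not pass, ranged from 0 without replicate 3 to 3.49. Depth in reads is unknown, so no counting error can be given. Nothing in the labels says that the 3 libraries of a group came from separate cultures, and p-values then measure only the spread between these libraries. With 3 pairs an exact permutation test cannot go below 0.25.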

Other observations

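Counts for other groups of genes follow, with JOA against control in THP-1 cells and the same test. They stand beside 8.64% higher and 4.35% lower among all tested genes. The cytokine list (11.8% higher and 5.88% lower), the proteasome list (5.13% and 2.56%) and the tubulins (8.33% and 0%) were near these shares. Of 25 interferon-stimulated genes 6 were higher and 1 lower, and these included IFI30, a lysosomal thiol reductase of antigen processing (0.37, SE 0.07), SAMHD1, a dNTP hydrolase (0.35, SE 0.07), and IFITM3, a membrane protein that blocks viral entry, which was the one lower (-0.43, SE 0.08). Of 25 glycolysis genes 4 were higher and 0 lower, led by the glucose transporter SLC2A3 (0.53, SE 0.10) and the enolase ENO2 (0.49, SE 0.12). In the cytokine list 2 of 17 were higher and 1 lower, with CCL3, a monocyte chemoattractant, called (0.805, 1.16 and 0.842 FPKM against 1.69, 1.71 and 1.08 FPKM) and 0.43 without the first pair. Of 24 genes of tyrosine kinase signalling 4 were higher and 0 lower, and the called member was the SRC family kinase FGR (0.68, SE 0.13, 0.46 without the first pair). Of 8 S100 genes S100A10 and S100A11 were higher and S100A4 was lower (-0.34, SE 0.06).

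Of 11 phagocytic and scavenger receptor genes 5 were higher and 1 lower (GAS6), and of 17 AP-1 and immediate early genes 6 were higher and 0 lower, including FOS (0.32, SE 0.06). Of 18 genes of macrophage lipid handling 5 were higher and 2 lower, including the nuclear receptor PPARG (0.43, SE 0.10). Of 22 chaperones of the endoplasmic reticulum 4 were higher and 0 lower. Of 39 proteasome genes 2 were higher and 1 lower, of 13 leukotriene and prostaglandin genes 3 were higher and 0 lower, and of 12 tubulins TUBA4A was higher (0.57, SE 0.07). Of 57 replication-dependent histone genes 8 passed the filter, and HIST1H2AC (0.67, SE 0.08) and HIST1H2BK (0.60, SE 0.10), whose transcripts can also be polyadenylated, were called with overlapping groups. HIST1H2BK was 0.48 without the first pair.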
